A study of Homo sapiens with 6 samples.

Results

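The transcripts of HSF1 and of 9 heat shock chaperones were examined in the human myeloma cell line MM.1S after knockdown of PRKCN. The 10 genes were taken by symbol (HSF1, HSPA1A, HSPA1B, HSPA8, HSPH1, DNAJB1, HSP90AA1, HSP90AB1, HSPE1 and HSPD1), and all 10 were among the 21850 genes listed and among the 13971 that passed the filter on low counts. Control cells (shNT) have the genotype WT in the labels and received a lentivirus for a scramble hairpin. Knockdown cells (shPRKCN) received a lentivirus for a hairpin against PRKCN. Each group had 3 libraries, and RNA was collected at day 3. Both groups are bulk transduced populations of 1 cell line. The labels do not say which PRKCN hairpin was used or whether the libraries came from separate cultures. The p-values therefore measure the spread between these libraries, which may be technical. The titles of all knockdown libraries carry the same tag, and no other hairpin is named. Effects of the hairpin other than loss of PRKCN therefore cannot be told apart from that loss. In such bulk samples, less RNA per cell and fewer cells with the transcript cannot be told apart.

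HSF1 is the transcription factor that, on proteotoxic stress, forms trimers, binds heat shock elements and drives the chaperone genes. HSP70 proteins (HSPA1A, HSPA1B, HSPA8) hold unfolded segments of client proteins in an ATP-driven cycle, which the J-domain protein DNAJB1 starts and the HSP110 protein HSPH1 resets by nucleotide exchange. HSP90 proteins (HSP90AA1, HSP90AB1) act later, on kinases, receptors and other nearly folded clients. HSPD1 and HSPE1, the HSP60 and HSP10 subunits of the mitochondrial chaperonin, work in the mitochondrial matrix and not in the cytosol. Plasma cells and myeloma cells make large amounts of immunoglobulin and lean on protein folding and degradation.

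Heat shock elements are alternating GAA and TTC units, which HSF1 trimers bind. RefSeq windows from 250 bases before to 50 after each annotated start (GRCh38.p14) were searched on both strands for the 2-unit forms GAANNTTC and TTCNNGAA, each its own reverse complement, where N is any base. The 3-unit form adds NNGAA after the former or NNTTC after the latter, so that every 3-unit match is also a 2-unit match. Windows were used for 9 of the 10 genes, all but HSF1, 15 windows in all. The 3-unit form was in 4 of these 15 windows, of 4 genes (HSPA8, HSP90AA1, HSP90AB1 and HSPD1), against 0.49% of all 35116 windows. A 2-unit form was in 8 of the 15, of 7 genes, against 13.5% of all windows. HSPH1 and HSPE1 had no match in their windows, which says only that these letters are absent there. Only exact letters were counted, so a unit with a changed base was missed. A match of 2 units is thus not shown to lack a further unit. Overlapping matches were joined, which left 12 matches in the windows of these 7 genes. The stretches below show 1 match per gene, 7 of the 12, at the genes whose levels are compared, with the GAA and TTC units of the match in capitals, 5′ to 3′ on the gene's strand.
HSPA1A, chr6:31815426-31815455 (+), 2 units: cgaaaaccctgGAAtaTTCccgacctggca
HSPA1B, chr6:31827622-31827651 (+), 2 units: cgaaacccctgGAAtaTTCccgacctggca
HSPA8, chr11:123062171-123062200 (−), 3 units: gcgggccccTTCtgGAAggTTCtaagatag
HSP90AA1, chr14:102087112-102087141 (−), 3 units: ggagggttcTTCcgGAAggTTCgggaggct
HSP90AB1, chr6:44247822-44247851 (+), 3 units: ctgagattgTTCtgGAAgcTTCtggattct
DNAJB1, chr19:14518426-14518455 (−), 2 units: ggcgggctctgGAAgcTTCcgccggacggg
HSPD1, chr2:197500061-197500090 (−), 4 units in a row from joined 3-unit matches: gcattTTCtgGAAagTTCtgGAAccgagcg
The match began 245 bases before an annotated start of HSPD1, 106 bases before the start of HSPA1A, 105 before that of HSPA1B, and 55, 88, 112 and 47 before an annotated start of HSPA8, HSP90AA1, HSP90AB1 and DNAJB1. For HSPD1, HSPA8, HSP90AA1, HSP90AB1 and DNAJB1 the start used lies inside the annotated gene and is not its outermost start. The 5 matches not shown were a 3-unit match 230 bases before the same start of HSPA8, a 3-unit match 165 bases before that of HSP90AB1, a 2-unit match 68 bases before that of HSP90AA1, a 2-unit match 77 bases before that of DNAJB1, and a 2-unit match that began 1 base after another start of DNAJB1. In GENCODE release 29 the stretches of HSPA8, HSP90AA1 and HSPD1 overlap untranslated exon sequence of other transcripts of these genes, and the HSPD1 stretch also that of an HSPE1 transcript. The stretches of HSP90AB1 and DNAJB1 lie inside the annotated bodies of these genes, and that of DNAJB1 also inside that of TECR. The stretches of HSPA1A and HSPA1B lie outside any annotated gene body.

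Library totals ran from 35625564 to 37730003 counts. The targeted gene, listed under its symbol PRKD3, had 1272, 1298 and 1216 CPM (counts scaled to a common library size by the TMM method) in the shNT libraries and 535, 491 and 527 CPM in the shPRKCN libraries, which left 41.0% of the control mean. All 8 plasma cell markers looked at had at least 1242 counts in every library. Their sum was lower after knockdown, at 8677 to 8818 CPM in shNT and 7963 to 8059 CPM in shPRKCN libraries. Of 9 markers of other blood and stromal cells, 7 were listed and 5 of these had at most 10 counts in any library. The others were CD3E, a T cell marker, at 10.9 CPM in shNT and 28.8 CPM in shPRKCN, and HBB, a red cell marker, at 3.17 and 1.01 CPM. The sum of the 7 was 12.9 to 15.5 CPM in shNT and 28.2 to 32.3 CPM in shPRKCN libraries. The part of these markers in the results was not tested.

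The inducible HSP70 genes fell after PRKCN knockdown, while the other 8 genes stayed within a much smaller range. A gene was called where edgeR's quasi-likelihood p, adjusted by Benjamini-Hochberg over all tested genes, was under 0.05 and the log2 fold change was beyond 0.58. By this rule 2 of the 10 were called, HSPA1A and HSPA1B, both lower, and 0 were called higher with edgeR or DESeq2. Over all tested genes 16.7% were called, 10.6% lower and 6.15% higher, so that the number called among the 10 was near the background. At an adjusted p under 0.05 without the fold limit 3 were higher (HSF1, DNAJB1 and HSP90AB1) and 4 lower (HSPA1A, HSPA1B, HSPA8 and HSP90AA1), and an unadjusted p gave the same counts, against 54.2% of all tested genes in either direction (26.5% higher, 27.8% lower). The groups did not overlap in 8 of the 10, against 58.8% of all tested genes. The median log2 fold change of the 10 was 0.01, beside 0.0012 over all tested genes.

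**Figure D1:**
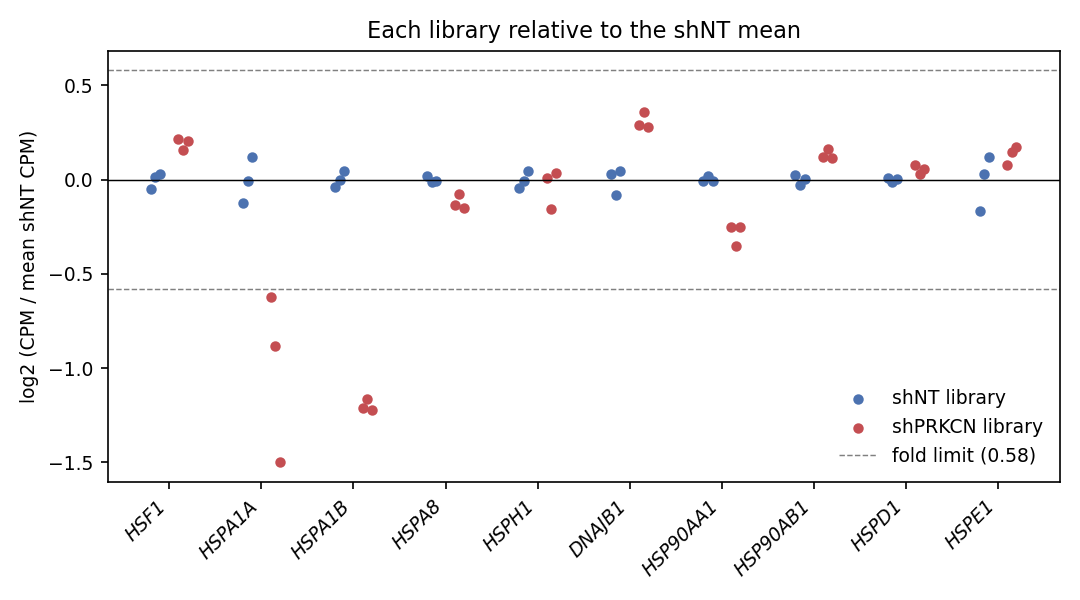
TMM-scaled CPM of each library relative to the mean of the shNT libraries, on a log2 scale, for each of the 10 genes, with shNT libraries in blue, shPRKCN libraries in red and dashed lines at the fold limit of 0.58. The HSPA1A and HSPA1B points of shPRKCN lie below the lower line, and those of the other 8 genes lie between the lines.

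HSF1, on chromosome 8, had 101, 106 and 107 CPM in the shNT libraries and 121, 116 and 120 CPM in the shPRKCN libraries. Every shPRKCN library lay above every shNT library. Its log2 fold change was 0.19 (SE 0.040, edgeR adjusted p = 3.6e-05), under the fold limit. The fold change stayed between 0.17 and 0.21 over 18 alternative settings. Among these, the setting without a fold limit and glmTreat, a test against the limit, keep the main fold change of every gene and alter only the call. By gene models, HSF1 shares 139 exonic bases with DGAT1 on the opposite strand, which had a log2 fold change of −0.17, and the strandedness of the counting is not given in the sources used here.

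HSPA1A and HSPA1B encode the stress-inducible HSP70 and stand 9795 bases apart on chromosome 6 (31815543 to 31817942 and 31827738 to 31830254, GRCh38.p14). HSPA1B had 65.7, 67.4 and 69.7 CPM in the shNT libraries and 29.2, 30.2 and 29.01 CPM in the shPRKCN libraries. The groups were far apart, and the knockdown mean was 43.6% of the control mean. Its log2 fold change was −1.20 (SE 0.052, edgeR adjusted p = 3.8e-31), and it was called under all 18 alternatives, between −1.22 and −1.11.

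HSPA1A was counted at a far lower level, with 87, 98 and 109 counts in the shNT libraries and 65, 54 and 36 counts in the shPRKCN libraries. The groups did not overlap, but the shPRKCN libraries were spread widely. The log2 fold change was −0.96 (SE 0.235, edgeR adjusted p = 0.00038). It was −1.16 without the first shPRKCN library and −0.74 without the third. On the log2(FPKM + 1) scale, which compresses low values, it was −0.42 and under the fold limit, and it was not called by glmTreat, which tests against the limit itself.

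The transcripts of these 2 genes share much of their sequence: 71.3% of the 50-base stretches of HSPA1A occur in HSPA1B. Of the counts on both, between 94.4% and 96.8% were on HSPA1B in every library, and how the counting placed shared reads is not given in the sources used here. The separate levels of HSPA1A and HSPA1B are therefore uncertain. Their sum does not depend on how reads are split between HSPA1A and HSPA1B, though 33.2% of the stretches of HSPA1A and 35.3% of those of HSPA1B also occur in AL671762.1, which is not among the rows used here. The sum was 68.2, 70.1 and 72.6 CPM in the shNT libraries and 31.0, 31.6 and 29.96 CPM in the shPRKCN libraries. The sum fell to 43.9% of control, with a log2 fold change of −1.19 (SE 0.051, edgeR adjusted p = 4.1e-31). The calls of HSPA1A and HSPA1B are thus not independent of each other.

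HSPA8, the constitutive HSP70 (HSC70; chromosome 11, 123057489 to 123062462, minus strand), was the most abundant of the 10 by FPKM, a level per kilobase of gene length. It had 1869, 1825 and 1832 CPM in the shNT libraries and 1680, 1747 and 1658 CPM in the shPRKCN libraries. The groups did not overlap, but the difference was small, with a log2 fold change of −0.12 (SE 0.032, edgeR adjusted p = 0.00087) that stayed between −0.14 and −0.10 over the alternatives. HSPA1A plus HSPA1B stood at 3.32%, 3.49% and 3.60% of the HSPA8 level (FPKM) in the shNT libraries and at 1.68%, 1.65% and 1.64% in the shPRKCN libraries. This ratio was lower in every knockdown library (difference of the mean log2 ratios −1.07, exact 2-sided permutation test p = 0.1, the smallest that 3 libraries against 3 allow, and 0.15 adjusted over 3 ratios).

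DNAJB1, the HSP40 that delivers clients to HSP70, lies on chromosome 19 (14514769 to 14560391, minus strand). It had 62.6, 57.8 and 63.1 CPM in the shNT libraries and 74.7, 78.5 and 74.3 CPM in the shPRKCN libraries, all of the latter higher. The log2 fold change was 0.31 (SE 0.047, edgeR adjusted p = 3.9e-08), under the fold limit, and 0.28 to 0.33 over the alternatives. DNAJB1 shares 211 exonic bases with TECR on the opposite strand, which had a log2 fold change of −0.15.

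HSPH1, the HSP110 exchange factor (chromosome 13, 31134973 to 31162388, minus strand), had 49.6, 50.8 and 52.8 CPM in the shNT libraries and 51.3, 46.0 and 52.3 CPM in the shPRKCN libraries. The groups overlapped, and the log2 fold change was −0.04 (95% interval −0.14 to 0.07, edgeR adjusted p = 0.59). Without the second shPRKCN library, the lowest, it was 0.021. None of the 50-base stretches of HSPH1 transcripts occur in another gene.

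**Figure D2:**
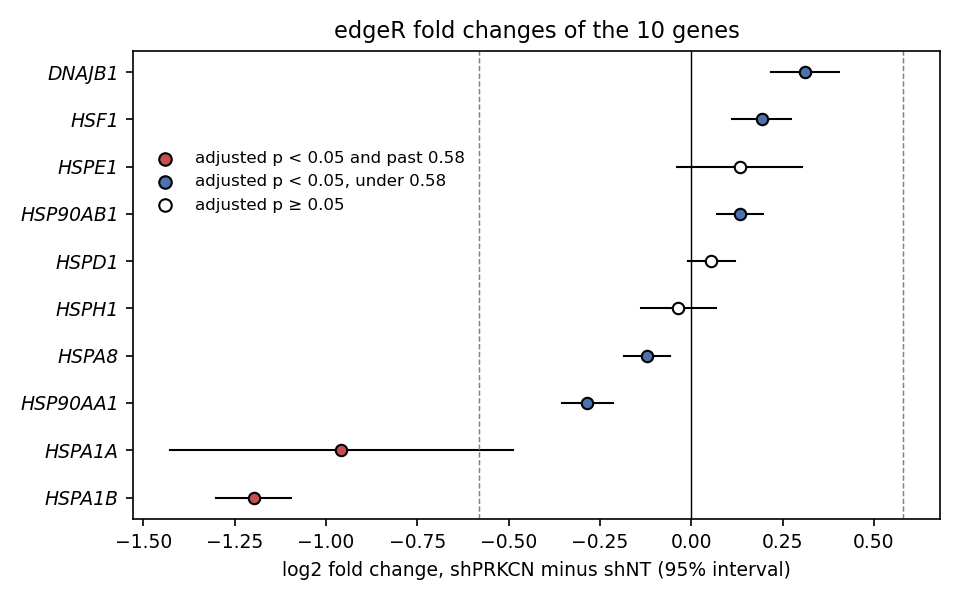
Log2 fold change of each of the 10 genes, shPRKCN minus shNT, from edgeR, with bars for the 95% interval and dashed lines at the fold limit of 0.58. HSPA1B (−1.20) and HSPA1A (−0.96) lie past the lower line, HSPA1A with the widest interval, and the other 8 lie between −0.28 and 0.31.

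The HSP90 paralogs were apart in sign. HSP90AA1, the more stress-responsive form, lies on chromosome 14 (102080742 to 102139749, minus strand) and HSP90AB1, the constitutive form, on chromosome 6 (44246194 to 44253883, plus strand). HSP90AA1 had 280.0, 285 and 280.0 CPM in the shNT libraries and 236, 221 and 237 CPM in the shPRKCN libraries. No knockdown library reached a control library, and the log2 fold change was −0.28 (SE 0.035, edgeR adjusted p = 1.7e-10). HSP90AB1 had 1753, 1693 and 1728 CPM in the shNT libraries and 1871, 1932 and 1869 CPM in the shPRKCN libraries. Its log2 fold change was 0.13 (SE 0.031, edgeR adjusted p = 0.00023). Both were under the fold limit and kept their sign over the alternatives, at −0.30 to −0.25 and 0.12 to 0.15. By FPKM, HSP90AA1 stood at 11.6%, 12.2% and 11.7% of HSP90AB1 in the shNT libraries and at 9.16%, 8.28% and 9.19% in the shPRKCN libraries, lower in all 3 (difference of the mean log2 ratios −0.42, exact permutation p = 0.1, adjusted 0.15). Of the 50-base stretches of HSP90AB1, 16.6% occur in other genes, mainly the pseudogene HSP90AB3P, and 11.3% of those of HSP90AA1 do. HSP90AA1 also shares 197 exonic bases with WDR20 on the opposite strand, which had a log2 fold change of −0.07 (edgeR adjusted p = 0.53).

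HSPD1 and HSPE1 lie head to head on chromosome 2, with 104 bases between them (197486584 to 197500274 and 197500379 to 197503449). HSPD1 had 714, 705 and 712 CPM in the shNT libraries and 750.3, 725 and 739 CPM in the shPRKCN libraries. The groups did not overlap, yet the difference missed the threshold (log2 fold change 0.06, 95% interval −0.0091 to 0.12, edgeR adjusted p = 0.14). HSPD1 was under 0.05 with DESeq2 (adjusted p = 0.040), with edgeR scaled by library size only (0.029) and with limma on log2(FPKM + 1) after a floor of 1 FPKM (0.036), at log2 fold changes of 0.06, 0.07 and 0.07. HSPE1 had 438, 524 and 567 counts in the shNT libraries and 550, 574 and 596 counts in the shPRKCN libraries, which overlap. Its log2 fold change was 0.13 (95% interval −0.04 to 0.30, adjusted p = 0.19 from the edgeR test, and 0.049 with limma after the FPKM floor). The ratio of HSPE1 to HSPD1 was 8.31% ± 0.854 in shNT and 8.78% ± 0.399 in shPRKCN libraries (FPKM, SD, n = 3, exact permutation p = 0.6, the same adjusted over the 3 ratios). HSPE1 lies inside the readthrough gene HSPE1-MOB4, which is not among the rows used here, and how reads shared with it were counted is not given, so this low level of HSPE1 against its partner is uncertain.

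By FPKM, the level order in shNT cells was HSPA8 (801 ± 8.98, SD, n = 3), HSP90AB1 (599.5 ± 9.28), HSPD1 (299 ± 1.34), HSP90AA1 (71.0 ± 0.879), HSF1 (45.9 ± 1.36), HSPA1B (26.7 ± 0.800), HSPE1 (24.8 ± 2.51), DNAJB1 (14.9 ± 0.677), HSPH1 (8.91 ± 0.284) and HSPA1A (1.11 ± 0.0932). Only HSPA1B and HSPE1 overlapped among neighbours. In shPRKCN cells HSPA1B, at 11.8 ± 0.121 FPKM, moved below HSPE1 (27.6 ± 0.902) and DNAJB1 (18.7 ± 0.370). The order was otherwise the same, and no neighbours overlapped. These orders depend on the gene lengths behind the deposited FPKM, such as 557 bases for HSPE1 and 4083 for DNAJB1. By CPM without a length, DNAJB1 (mean 61.2 in shNT) stood above HSPE1 (13.9). HSPA8, HSP90AB1 and HSPD1 made up 91.8% to 92.3% of the summed FPKM of the 9 chaperones in shNT and 93.0% to 93.4% in shPRKCN libraries. The sum itself was 1830 to 1863 FPKM in shNT and 1846 to 1861 FPKM in shPRKCN libraries, which overlap.

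**Figure D3:**
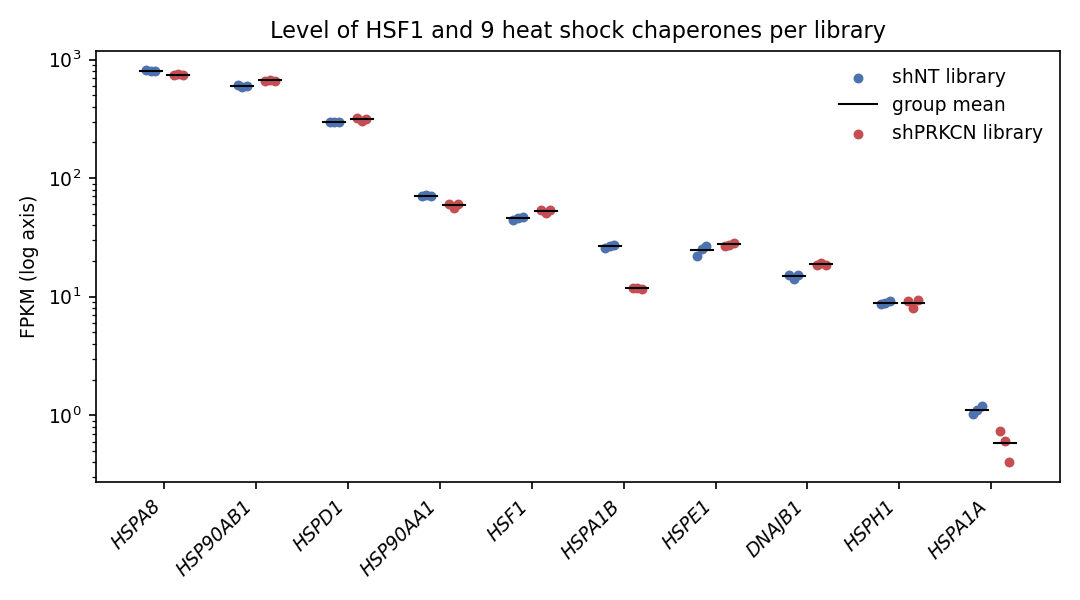
FPKM of each library on a log axis for the 10 genes, ordered by their level in shNT cells, with shNT in blue, shPRKCN in red and group means as black lines. HSPA8 is highest at about 801 FPKM in shNT, and HSPA1B goes from 26.7 to 11.8 FPKM, below HSPE1 and DNAJB1.

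The wider chaperone network was read from 11 lists with 110 genes, of which 93 were tested. Of these, 2 were called higher and 10 lower (beside 6.15% and 10.6% of all tested genes), and the median log2 fold change was −0.05, beside 0.0012 over all tested genes. At an adjusted p under 0.05 alone, 18 of the 93 were higher and 33 lower, beside 26.5% and 27.8% of all tested genes.

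No gene was called in the lists of HSP90 co-chaperones (13 tested, median −0.02), of HSP70 exchange factors and cofactors (10 tested, median 0.01), of the cytosolic chaperonin TRiC (9 tested, median −0.0078), of prefoldin, which hands actin and tubulin to TRiC (6 tested, median −0.03), of mitochondrial chaperones and proteases (11 tested, median −0.06) or of ER chaperones (9 tested, median −0.08). At an adjusted p under 0.05 these lists held 11 higher and 17 lower genes, beside the same 26.5% and 27.8% of all tested genes. The paralogs in other compartments had small differences. HSPA5, the ER HSP70 (BiP), had a log2 fold change of 0.16 (adjusted p = 2.5e-05), and HSP90B1, the ER HSP90 (GRP94), one of −0.22 (adjusted p = 2.4e-08). HSPA9, the mitochondrial HSP70, had 0.09 (adjusted p = 0.012) and TRAP1, the mitochondrial HSP90, 0.23 (adjusted p = 2.2e-07), all from edgeR's quasi-likelihood test and all under the fold limit.

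In the remaining HSP70 and HSP110 list, 5 of 9 genes were tested and 2 were called lower, beside 10.6% of all tested genes. So few genes give no more than a rough share. HSPA4L, an HSP110 protein related to HSPH1, had 49.9, 53.1 and 56.3 CPM in the shNT libraries and 25.9, 23.1 and 25.6 CPM in the shPRKCN libraries, a fall to 46.9% (log2 fold change −1.09, SE 0.058, edgeR adjusted p = 1.8e-26). Its relative HSPA4 had 0.18, under the fold limit, so the 3 HSP110 genes HSPA4L, HSPH1 and HSPA4 had log2 fold changes of −1.09, −0.04 and 0.18. HSPA12A, a distant HSP70 relative, fell by 0.69 on the log2 scale, but was not called with glmTreat or on the log2(FPKM + 1) scale. It shares 166 exonic bases with ENO4 on the opposite strand, which had at most 8 counts in any library. HSPA6, the strictly heat-inducible HSP70, had at most 10 counts in any library and was not tested. Of 9 small heat shock protein genes, 4 were listed and 1 was tested. That gene, HSPB1 (HSP27), had 355, 319 and 381 counts in the shNT libraries and 167, 253 and 190 counts in the shPRKCN libraries, with a log2 fold change of −0.83 (SE 0.125, edgeR adjusted p = 4.6e-08). HSPB1 was not called with glmTreat.

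Among the 12 tested J-domain genes of the cytosol and nucleus (median 0.0053), 2 were called lower, beside 10.6% of all tested genes. DNAJC9, a histone chaperone with a J domain, fell by 0.69 on the log2 scale (adjusted p = 6.7e-20), and shares 949 exonic bases with FAM149B1 on the opposite strand, which had a log2 fold change of −0.06 (adjusted p = 0.45, both from edgeR). DNAJB5 was close to the fold limit at −0.60 (adjusted p = 0.0025, same test) and was not called without the second shNT or the third shPRKCN library, with glmTreat or with limma on any of the FPKM scales. In the HSF family list, 5 of 8 genes were tested and 1 was called, higher, beside 6.15% of all tested genes called higher. The tested genes of this list include HSBP1, HSBP1L1 and HSF2BP, which are not heat shock factors themselves. HSF4, a heat shock factor best known from the lens, had 663, 811 and 787 counts in the shNT libraries and 1585, 1589 and 1675 counts in the shPRKCN libraries, and rose (log2 fold change 1.06, SE 0.061, edgeR adjusted p = 1.5e-24). HSF2 had −0.12 (adjusted p = 0.11).

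Of 12 other stress genes linked to HSF1, 5 were called lower and 1 higher, beside 10.6% and 6.15% of all tested genes, with a median of −0.17. These genes also answer to other regulators. The list was chosen with earlier results of these data known, so its count beside the background is not a result about HSF1 activity. SERPINH1, the collagen chaperone HSP47, had 155, 154 and 103 counts in the shNT libraries and 54, 62 and 39 counts in the shPRKCN libraries (log2 fold change −1.45, SE 0.215, edgeR adjusted p = 2.9e-08). RGS2, a regulator of G protein signaling, fell by 1.42 and ATF3, a stress-induced transcription factor, by 1.26 on the log2 scale, to 37.3% and 41.8% of control, respectively. CLU and GADD45B, named after their values were seen, were the other 2 lower genes, at −0.97 and −0.68. The 1 higher gene was HMOX1, heme oxygenase, named after its value was seen, with a log2 fold change of 0.67 that was 0.55 and under the limit without the second shNT library, and it was not called with glmTreat.

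**Figure D4:**
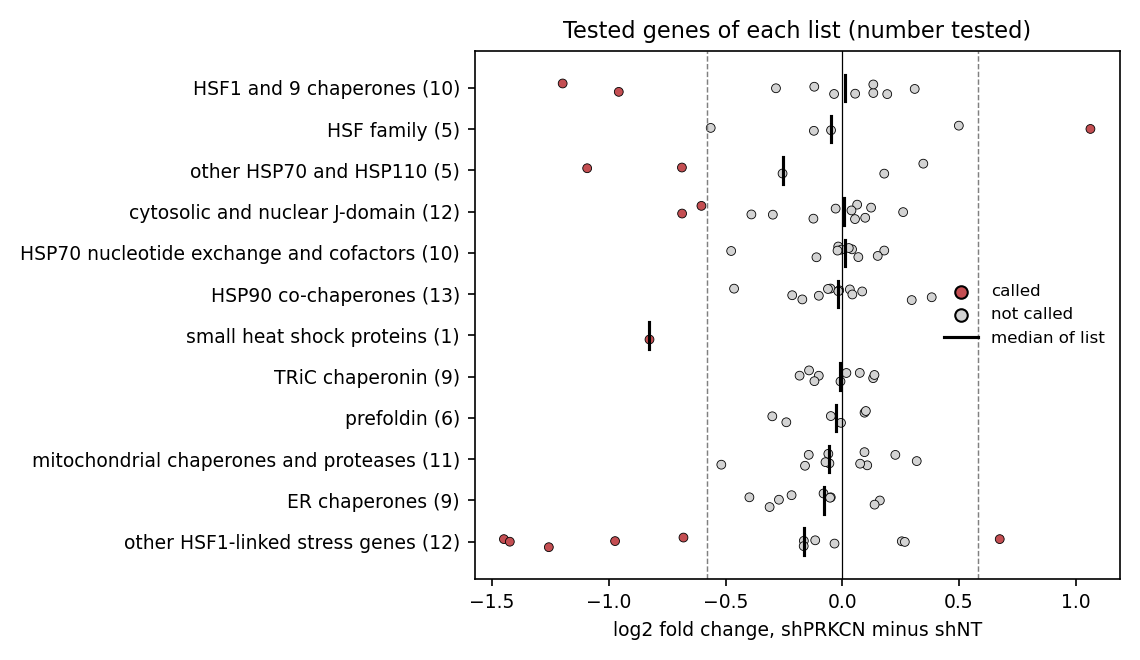
Log2 fold change (shPRKCN minus shNT) of every tested gene of each list, with called genes in red, the others in grey, the median of each list as a black bar and dashed lines at the fold limit of 0.58; vertical jitter has no meaning. Points of the TRiC, prefoldin, co-chaperone, mitochondrial and ER lists stay between the dashed lines, and HSF4 (1.06) and HMOX1 (0.67) are the points past the upper line.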

How the data were processed

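The authors deposited raw counts and FPKM values for 21850 genes in 6 MM.1S libraries (3 shNT, 3 shPRKCN). The submitters' processing notes name FastQC, HISAT2, StringTie and GRCh38.p14. The annotation, the counting program and its strandedness are not given in the sources used here. The deposited FPKM values are scaled for gene length and library size and were used to compare levels between genes, for ratios and in an alternative test.

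The 13971 genes that filterByExpr kept entered edgeR's quasi-likelihood test (version 4.0.16, under R 4.3.3) after TMM scaling, and p was adjusted over all of them by Benjamini-Hochberg. The limits (0.05 and 0.58) follow the study's methods, which name DESeq2, used here as an alternative (1.42.0) beside limma (3.58.1) with a pseudocount of 1 or 0.1 added to FPKM before log2. The standard error is the log2 fold change divided by the square root of F. Intervals use 95%. Replicates were compared by chi-square per degree of freedom over genes (3.38 to 4.80 within groups, 63.8 to 70.2 between), and none repeated another. Tested on counts simulated for this comparison, edgeR recovered 99.1% of 109 genes changed by log2 1 and called 3 unchanged genes of 13805 tested. Smaller changes were not simulated, and far fewer genes were changed than differed in the data. The simulation therefore does not show how well small differences are recovered.

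The 10 genes and the lists were chosen with earlier results of these data known. Named were the 10 genes, the 4 paralogs of other compartments, PRKD3, up to 3 called genes per list with the largest change and a mean of at least 50 counts, and for HSF1 and the gene that changed most the 3 genes with the highest Pearson r. HSPA4, HSPA6, HSF2 and the genes that overlap a named gene were added after their values were seen. Positions are RefSeq's on GRCh38.p14. Exon overlaps and shared 50-base stretches use GENCODE release 29.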

Additional observations from a re-analysis of the deposited data

How the results depend on the processing

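Of the 10 genes, 2 were called lower and 0 higher (edgeR; at an unadjusted p under 0.05, 4 lower and 3 higher). The called counts were also 2 and 0 with DESeq2, the other scalings and filters, the replicate block and each library left out (2 to 2 lower, 0 to 0 higher). Without the fold limit 3 were higher and 4 lower; at that threshold HSPD1 was added to the higher genes with DESeq2 and with library size only, and HSPD1 and HSPE1 with limma after the FPKM floor. With glmTreat, which tests against the fold limit itself, and with limma on log2(FPKM + 1), with or without a floor of 1 FPKM in 3 libraries, 1 was lower, HSPA1B. Over all genes, 859 higher and 1475 lower became 3700 and 3877 without the fold limit, 339 and 821 with glmTreat, 315 and 648 with log2(FPKM + 1), and 310 and 635 with the FPKM minimum, and ran from 815 to 874 and from 1437 to 1487 with single libraries left out. Of the related lists, 2 higher and 10 lower genes became 18 and 33 without the fold limit, and 1 and 7 with glmTreat; with single libraries left out, 1 to 2 were higher and 9 to 10 lower. The higher gene lost without the second shNT library was HMOX1. HSPH1 ran from −0.064 to 0.021 over the libraries left out and was above 0 without the second shPRKCN library, and the difference in the log2 ratio of HSPE1 to HSPD1 went from 0.08 to −0.0018 without the first shNT library (−0.0018 to 0.14 over the libraries left out). Samples with the same replicate number did not deviate together (r = −0.088, −0.026 and −0.044), so the number was not taken as a pairing. With the replicate block 854 genes were higher and 1463 lower, HSPA1A plus HSPA1B had −1.19, and the same 2 of the 10 were called. The cause of these shifts was not tested.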

Other observations

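The genes with the most similar pattern over the 6 libraries were looked up by Pearson r of log2 CPM among 11649 genes that averaged 50 counts or more. For HSPA1B they were SENP2, a SUMO protease (r = 0.9999, log2 fold change −1.18), ANLN, an actin-binding protein of cytokinesis (r = 0.9997, −1.62), and PERP, a p53-induced membrane protein (r = 0.9997, −1.09). For HSF1 they were CDC14B, a phosphatase (r = 0.998, log2 fold change 2.34), KIAA1143 (r = 0.996, 0.21) and UBE2D1, a ubiquitin-conjugating enzyme (r = 0.995, 0.56). Over 2 groups of 3 libraries r is high for any gene that separates the groups, and it was above 0.95 for 1811 genes with HSPA1B and for 575 with HSF1.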
